A study of Mus musculus with 4 samples.

Results

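Genes of glucose uptake, glycolysis, lactate export and the response to low oxygen were examined in 4 RNA sequencing libraries of cultured mouse leukaemia cells. The group holds 41 genes, listed by symbol for their known function, with earlier results of these data known. All 41 were found among the 24497 gene rows of the deposited table. Of these, 38 reached 1 TPM (a length-corrected share of all transcripts) in at least 2 libraries and were tested. The lactate dehydrogenase gene Ldhb, the HIF subunit gene Epas1 and the peptide hormone gene Adm did not. Eno2 passed this filter through the Tet2 KO libraries alone, so its difference was built into its selection.

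The 2 WT and the 2 Tet2 KO libraries came from acute myeloid leukaemia cells carrying NRAS and AE9a, a truncated form of the AML1-ETO fusion. They were established from haematopoietic stem cells of the bone marrow of wild-type mice or of Tet2-/- mice, whose Tet2 lacks exon 3. Both groups grew in RPMI 1640 with murine SCF (50 ng/ml), IL-3 and IL-6 (10 ng/ml each), G418 (1 mg/ml) and puromycin (2 µg/ml), with no further treatment. The labels name no separate animals, clones or cultures behind the libraries of a group, so p-values measure only how far these particular libraries vary, and that variation may be technical. The age of the mice and the oxygen level of the cultures were not given in the sources used here.

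Glycolysis splits glucose into pyruvate in the cytosol, and lactate dehydrogenase turns pyruvate into lactate, which leaves the cell through proton-coupled transporters. HIF, the hypoxia-inducible factor, pairs an alpha subunit with ARNT and raises transcription of many glycolytic genes and of genes for blood vessel growth, matrix processing and mitophagy. In oxygenated cells the EGLN prolyl hydroxylases mark the alpha subunit, and VHL, part of a ubiquitin ligase, targets it for degradation. The EGLN enzymes and TET2 belong to the same class of oxygen- and 2-oxoglutarate-dependent dioxygenases. HIF activity is set largely by the stability of the protein, which RNA levels do not measure.

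The deposited unit, TPM, keeps no sequencing depth. Tet2 stood at 16.62 and 16.98 TPM in the WT pair and at 16.98 and 16.95 TPM in the Tet2 KO pair, but reads of the deleted exon were not separated from the rest, so this does not check the deletion. ERCC spike-in RNAs took 4.38 and 4.43% of the WT columns and 5.48 and 5.33% of the Tet2 KO columns. The median log2 fold change over the 11452 genes tested was 0.23, so values are also given after median-ratio scaling, which brings this median to -0.0039. All 10 myeloid and progenitor markers examined, among them Ptprc, Spi1, Mpo and Cd34, were above 10 TPM in every library. Their summed level went from 20733 and 20751 TPM in the WT pair to 9080 and 9181 TPM in the Tet2 KO pair, mostly through Lyz2, while Kit went from 11.63 and 11.99 TPM to 201.19 and 209.41 TPM. The summed levels of T and NK cell, B cell, stromal and endothelial markers stayed under 1 TPM in every library. Erythroid markers summed to 78.96 and 71.75 TPM in the WT pair and to 299.96 and 302.31 TPM in the Tet2 KO pair, nearly all from Hbb-bt. The erythroid markers Klf1 and Epor stayed under 0.5 TPM. The part of these marker shifts in the results below was not tested. In such bulk samples, fewer cells of a type and less RNA per cell cannot be told apart.

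Tet2 KO cells had lower RNA of 13 of the 17 glycolytic enzymes tested, of the lactate exporter Slc16a3 and of the oxygen sensor Egln3. They had higher RNA of Vegfa, Ndrg1, the glucose transporter Slc2a3 and the regulators Pfkfb3 and Pdk1. Of the 38 tested members, 22 were lower and 13 higher at a limma adjusted p under 0.05. The 13 include Eno2, whose difference was built into its selection. Of all genes tested, 73.9% were called, 19.5% lower and 54.4% higher, against 57.9% lower and 34.2% higher among the members. The members' median log2 fold change was -0.29, against 0.23 for all genes. After median-ratio scaling 24 members were lower and 9 higher, where 67.5% of all genes were called, 34.8% lower and 32.7% higher. When scaled to the spike-ins, 25 members were lower and 8 higher, where 67.4% of all genes were called, 37.8% lower and 29.6% higher. The 2 WT libraries did not overlap the 2 Tet2 KO libraries for 37 of the 38 members, 23 lower and 14 higher, as for 86.8% of all genes tested, 24.4% lower and 62.4% higher. The 14 also include Eno2, selected through its Tet2 KO values. Phosphofructokinase gene Pfkp was the member that overlapped.

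**Figure D1:**
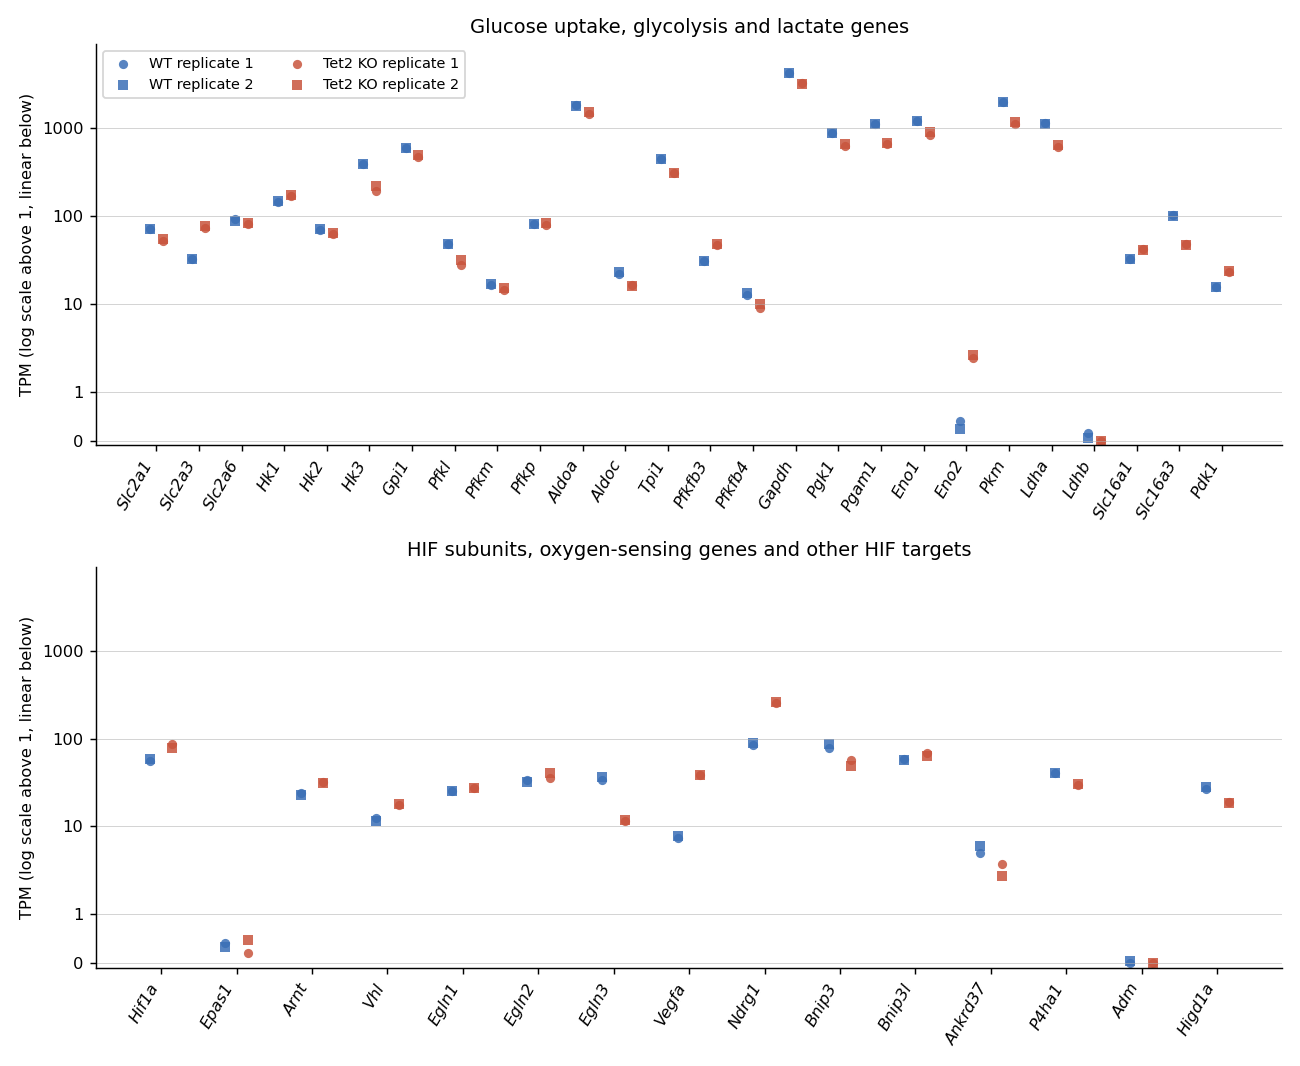
TPM of the 41 members in each library, with WT in blue and Tet2 KO in red, circles for replicate 1 and squares for replicate 2; the vertical axis is logarithmic above 1 TPM and linear below. Gapdh, Pkm, Aldoa, Eno1, Ldha and Pgam1 are lower in both Tet2 KO libraries, while Slc2a3, Vegfa and Ndrg1 are higher, and Ldhb, Epas1 and Adm lie below 1 TPM.

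The 18 enzymes that carry glucose to lactate were set beside 8 other HIF targets (Vegfa, Ndrg1, Bnip3, Bnip3l, Ankrd37, P4ha1, Adm and Higd1a). Of the 17 enzymes tested, 13 were lower and 2 higher, with a median log2 fold change of -0.44. The 2 higher were Hk1 and Eno2, the latter selected through its Tet2 KO values. Of the 7 other targets tested, 4 were lower and 3 higher, with a median of -0.42. Among all genes tested that averaged at least 100 TPM, 1426 in number, the median was 0.05 and 38.4% were lower. After median-ratio scaling their median was -0.20. Only Ndrg1 of the other targets averaged that much, and the enzymes Hk2, Pfkl, Pfkm, Pfkp, Aldoc and Eno2 did not. The enzymes ran from -0.90 to 1.42, and the other targets from -0.64 to 2.20. Leaving out Eno2, the highest enzyme was Hk1 at 0.22. Leaving out Vegfa and Ndrg1, the highest other target was Bnip3l at 0.20. After median-ratio scaling the medians were -0.69 and -0.67, with 15 enzymes lower and 1 higher, and 4 other targets lower and 2 higher. With a length and GC correction added to that scaling they were -0.59 and -0.57. The medians lay apart after quantile normalization (-0.42 for enzymes, -0.65 for other targets) and, the other way, with no filter on low values (-0.42 and -0.23). Adding Egln3, Pdk1, Pfkfb3 and Pfkfb4, which are also known HIF targets, gave 6 of 11 tested targets lower and 5 higher. These counts depend on the choice of genes. Members left out of this addition include Slc16a3 (-1.08), Hk2 (-0.15) and Eno2 (1.42), also induced by HIF. That list is not complete, since HIF raises transcription of many glycolytic genes.

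The summed level of the 18 enzymes was 14062 and 14090 TPM in the WT pair and 9861 and 10109 TPM in the Tet2 KO pair. As a share of all transcripts other than spike-ins, this was 1.47% ± 0.0026 (SD, n = 2) in WT and 1.06% ± 0.0173 (SD, n = 2) in Tet2 KO. The summed level of the 8 other targets went the other way, from 299.91 and 315.64 TPM to 469.88 and 460.36 TPM. Ndrg1 alone gave 83.97 and 88.45 TPM of the sums in WT and 252.27 and 257.35 TPM of those in Tet2 KO. The rise of the sum thus rests on Ndrg1, and 4 of the 7 targets tested were lower. No test was made on these sums, because the members had been chosen with earlier results known.

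**Figure D2:**
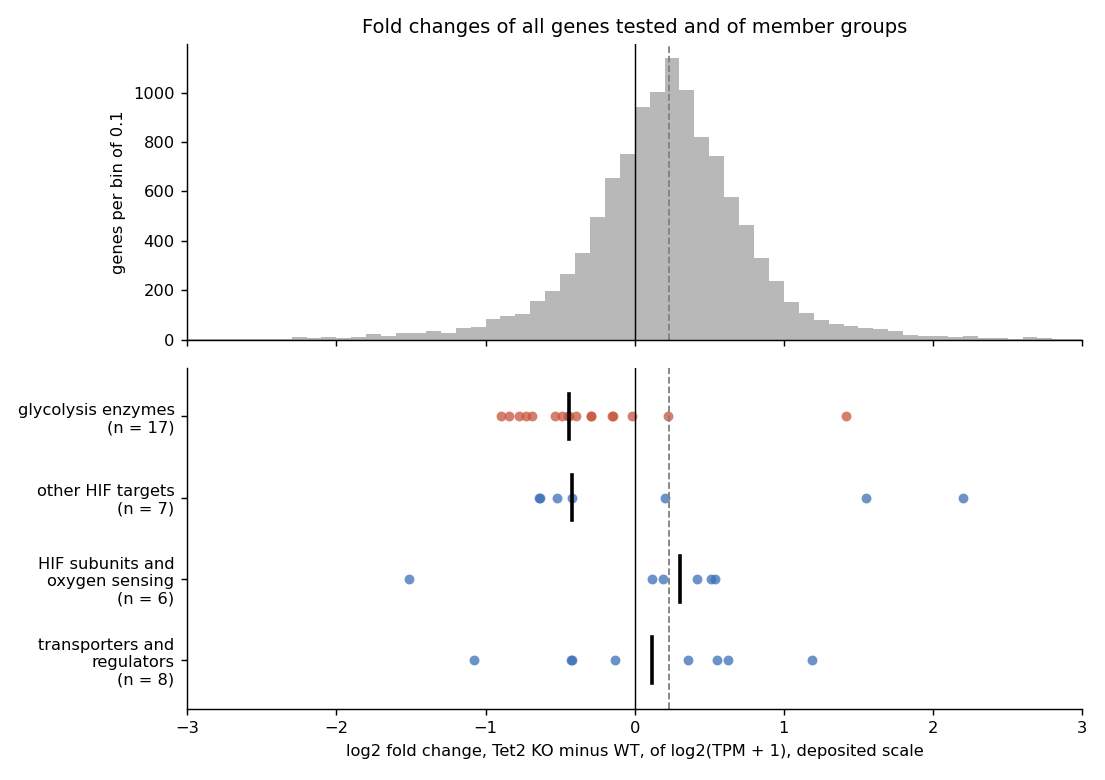
Log2 fold changes (Tet2 KO minus WT, of log2(TPM + 1)) on the deposited scale: the histogram counts all genes tested in bins of 0.1, leaving out 21 genes beyond 3 in size, and each point below is 1 tested member, with a black bar at the group median. The dashed line is the median of all genes, 0.23; enzymes lie left of it except Eno2, and the other HIF targets lie on both sides, with medians of -0.44 and -0.42.

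Promoter sequence was read for 37 of the 41 members from RefSeq starts on GRCm38.p6, the build that mm10 corresponds to. Slc2a3, Epas1, Ndrg1 and Bnip3l had no entry. The 250 bases before each start were searched on both strands for the HIF core letters ACGTG and GCGTG. The first of these also lies within CACGTG, the E-box bound by MYC and other factors. Of the 37 members, 33 (89.2%) held a core match before at least 1 start, as did 61.6% of the tested genes in the table and 41.5% of all its genes. By single windows the shares were 80.8% of 52 member windows and 38.6% of all 32851. The median GC content was 61.9% for the members, 59.6% for the tested genes and 52.4% for all genes. Matches lay before 20 of the 22 members that were lower in Tet2 KO (90.9%) and before 8 of the 10 higher ones with an entry (80%). The enzymes Gpi1, Tpi1 and Eno2 and the HIF regulator Vhl had no match. CACGTG was present before Ldha, Pfkm, Pfkfb3, Slc16a1, Hif1a and Bnip3. A match is a description of the letters and not a binding site. The sequences below are the first listed windows of 4 genes that were lower in Tet2 KO (Ldha, Pgam1, Pgk1 and Egln3) and 3 that were higher (Pfkfb3, Pdk1 and Vegfa). They are shown so that promoters of genes that moved in opposite directions can be compared, each from 5′ to 3′ with core matches in capitals.
Ldha, chr7:46845554-46845803, plus strand: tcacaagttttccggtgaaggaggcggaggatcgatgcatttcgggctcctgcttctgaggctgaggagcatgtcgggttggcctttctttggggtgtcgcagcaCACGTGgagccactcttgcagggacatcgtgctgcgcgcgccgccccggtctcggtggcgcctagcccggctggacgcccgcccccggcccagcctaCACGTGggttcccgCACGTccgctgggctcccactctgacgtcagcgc
Pgam1, chr19:41911621-41911870, plus strand: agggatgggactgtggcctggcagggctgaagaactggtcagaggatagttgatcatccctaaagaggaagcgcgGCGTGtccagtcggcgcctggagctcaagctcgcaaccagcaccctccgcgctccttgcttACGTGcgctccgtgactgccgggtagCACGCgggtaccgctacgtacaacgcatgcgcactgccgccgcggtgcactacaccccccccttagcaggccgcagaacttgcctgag
Pgk1, chrX:106186850-106187099, plus strand: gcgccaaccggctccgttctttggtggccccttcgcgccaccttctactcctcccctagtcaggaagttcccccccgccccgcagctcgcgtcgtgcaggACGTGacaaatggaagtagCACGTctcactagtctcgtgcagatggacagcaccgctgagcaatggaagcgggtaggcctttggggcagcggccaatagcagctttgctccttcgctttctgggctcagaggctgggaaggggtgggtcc
Egln3, chr12:54203875-54204124, minus strand: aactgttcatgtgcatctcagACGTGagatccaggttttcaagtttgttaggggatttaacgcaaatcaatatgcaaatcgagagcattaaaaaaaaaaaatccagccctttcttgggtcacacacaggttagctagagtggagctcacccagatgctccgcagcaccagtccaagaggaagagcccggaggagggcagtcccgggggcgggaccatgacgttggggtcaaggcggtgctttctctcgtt
Pfkfb3, chr2:11553930-11554179, minus strand: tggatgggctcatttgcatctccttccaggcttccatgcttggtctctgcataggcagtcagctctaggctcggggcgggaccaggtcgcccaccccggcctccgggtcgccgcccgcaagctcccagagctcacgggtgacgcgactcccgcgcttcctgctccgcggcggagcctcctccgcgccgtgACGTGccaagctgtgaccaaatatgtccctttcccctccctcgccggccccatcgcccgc
Pdk1, chr2:71872974-71873223, plus strand: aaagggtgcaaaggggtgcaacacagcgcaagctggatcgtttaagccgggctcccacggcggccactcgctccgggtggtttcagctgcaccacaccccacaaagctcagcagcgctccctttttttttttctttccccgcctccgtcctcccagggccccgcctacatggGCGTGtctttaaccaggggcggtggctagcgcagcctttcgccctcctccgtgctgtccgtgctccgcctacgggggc
Vegfa, chr17:46032378-46032627, minus strand: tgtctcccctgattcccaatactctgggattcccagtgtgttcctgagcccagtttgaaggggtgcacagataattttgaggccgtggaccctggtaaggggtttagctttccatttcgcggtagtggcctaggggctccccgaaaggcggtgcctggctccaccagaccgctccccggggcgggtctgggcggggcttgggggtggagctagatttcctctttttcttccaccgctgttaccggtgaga
Ldha holds 2 copies of CACGTG and 1 further core match in this window, Pgam1 holds 3 core matches and Pgk1 holds 2. Egln3, Pfkfb3 and Pdk1 hold 1 each. The Vegfa window holds none, while the window before a second Vegfa start holds 2. That second window (chr17:46025164-46025413) lies inside the Vegfa gene. Vegfa counts among the 33 members with a match only through it. Of the windows shown, that of Ldha also lies inside its gene (46841475 to 46855627). The Pfkfb3 window lies partly inside its gene, which ends at 11554077. Core letters stood before genes of both directions in these windows.

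Glucose enters through facilitative transporters, and their RNA moved apart. Slc2a1 (chromosome 4, 119108711 to 119137983), which encodes the widespread transporter GLUT1, stood at 71.66 and 70.49 TPM in the WT pair and at 51.79 and 54.08 TPM in the Tet2 KO pair. This fall was 1.34-fold in mean TPM (log2 fold change of -0.42, SE 0.0532, limma adjusted p = 2.61e-06). Slc2a3 (chromosome 6, 122727809 to 122801640), which encodes GLUT3, a transporter of high glucose affinity, stood at 32.35 and 31.90 TPM in the WT pair and at 73.07 and 75.99 TPM in the Tet2 KO pair. It rose 2.32-fold (log2 fold change of 1.19, SE 0.0549, limma adjusted p = 1.27e-11). Both genes kept these directions after median-ratio scaling, with log2 fold changes of -0.67 and 0.94. Slc2a6, which encodes GLUT6, a transporter of lysosomal membranes, moved little, from 91.53 and 87.95 TPM to 80.00 and 83.85 TPM (log2 fold change of -0.13, limma adjusted p = 0.0299). This call was lost without WT replicate 1 (limma adjusted p = 0.266), without WT replicate 2 (0.0777) or without Tet2 KO replicate 1 (0.0935). The summed TPM of the 3 transporters was 195.54 and 190.34 in WT and 204.86 and 213.92 in Tet2 KO. Within that sum, Slc2a3 went from 16.5 and 16.8% to 35.7 and 35.5%.

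Hexokinases trap glucose as glucose 6-phosphate. Hk3 (chromosome 13, 55005985 to 55021385), the isozyme typical of myeloid cells, stood at 385.47 and 384.11 TPM in the WT pair and at 192.94 and 219.56 TPM in the Tet2 KO pair. It fell 1.87-fold, the largest fall of a tested enzyme on the log2 scale (log2 fold change of -0.90, SE 0.055, limma adjusted p = 6.1e-08). Hk1, the housekeeping isozyme that binds mitochondria, went from 144.08 and 147.58 TPM to 169.83 and 170.92 TPM (log2 fold change of 0.22, limma adjusted p = 2.14e-04). That rise was no larger than the median of all genes, and after median-ratio scaling the value was -0.03 (limma adjusted p = 0.53). An annotated antisense gene, Hk1os, was listed at 3.92 to 7.57 TPM, and whether the counting used strand was not given in the sources used here. Hk2, the isozyme induced by HIF and by growth signals, was at 68.90 and 70.84 TPM in the WT pair and at 61.80 and 64.30 TPM in the Tet2 KO pair (log2 fold change of -0.15, limma adjusted p = 0.0196). The Hk2 call was lost without WT replicate 1 (limma adjusted p = 0.078), without WT replicate 2 (0.18) or without Tet2 KO replicate 1 (0.054). Hk3 gave 64.4 and 63.7% of the summed hexokinase TPM in WT and 45.4 and 48.3% in Tet2 KO. The sum itself went from 598.45 and 602.53 TPM to 424.57 and 454.78 TPM.

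The upper part of the chain converts glucose 6-phosphate to triose phosphates. Phosphofructokinase, its committed step, is built from Pfkl, Pfkm and Pfkp subunits. Pfkl, the liver-type subunit, fell from 48.10 and 47.79 TPM to 27.55 and 31.33 TPM (log2 fold change of -0.69, SE 0.0649, limma adjusted p = 9.07e-08). Pfkp, the platelet-type subunit, was at 81.76 and 81.44 TPM in the WT pair and at 77.85 and 83.74 TPM in the Tet2 KO pair, so that the groups overlapped (log2 fold change of -0.02, limma adjusted p = 0.805). Pfkm, the muscle-type subunit, was at 16.50 and 16.90 TPM against 14.52 and 15.28 TPM and missed the threshold (log2 fold change of -0.16, limma adjusted p = 0.0595). Relative to the all-gene median, Pfkp and Pfkm were lower, with log2 fold changes of -0.26 and -0.39 (limma adjusted p = 8.8e-04 and 4.96e-04). The share of Pfkl in the summed subunits went from 32.9 and 32.7% to 23.0 and 24.0%.

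The other upper enzymes fell by smaller folds than Pfkl. Gpi1, glucose 6-phosphate isomerase, went from 589.86 and 586.77 TPM to 468.55 and 490.52 TPM, a 1.23-fold fall. Aldoa, the main aldolase here, went from 1822.51 and 1795.51 TPM to 1456.63 and 1502.32 TPM, a 1.22-fold fall. Its intronless copies Aldoart1 and Aldoart2 were listed below 1 TPM. Aldoc, the brain-type aldolase, stood at 0.0121 and 0.0127 of the TPM of Aldoa in WT and fell 1.39-fold, from 21.99 and 22.76 TPM to 16.22 and 16.07 TPM. Tpi1, triose phosphate isomerase, fell 1.45-fold, from 439.27 and 448.22 TPM to 306.09 and 305.64 TPM. All 4 passed the test (limma adjusted p between 1.97e-09 and 1.48e-05), with no overlap between groups.

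In the lower part, where ATP and pyruvate are made, every abundant enzyme fell. Gapdh, glyceraldehyde 3-phosphate dehydrogenase, had the highest level of all members, at 4173.28 and 4228.38 TPM in the WT pair and at 3224.63 and 3176.18 TPM in the Tet2 KO pair, a 1.31-fold fall (log2 fold change of -0.39, SE 0.027, limma adjusted p = 1.74e-09). It is often used as a reference gene, and it was not level between these groups. Pgk1, phosphoglycerate kinase, went from 864.02 and 866.71 TPM to 625.45 and 649.19 TPM, 1.36-fold lower. Pgam1, phosphoglycerate mutase (chromosome 19, 41911923 to 41918660), fell 1.66-fold, from 1107.53 and 1096.55 TPM to 663.41 and 665.43 TPM (log2 fold change of -0.73, SE 0.0328, limma adjusted p = 9.21e-12). Pkm, pyruvate kinase (chromosome 9, 59656368 to 59679375), fell 1.71-fold, from 1962.62 and 1978.50 TPM to 1121.69 and 1178.10 TPM (log2 fold change of -0.78, SE 0.0327, limma adjusted p = 4.06e-12). Its M1 and M2 splice forms were not separated in the table.

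The 2 enolase isozymes among the members were listed at very unequal levels. Eno1, the general enolase, went from 1203.55 and 1200.87 TPM to 821.92 and 893.87 TPM (log2 fold change of -0.49, limma adjusted p = 2.58e-08). A near-identical copy, Eno1b, was listed at 516.30 and 499.79 TPM in the WT pair and at 284.60 and 260.78 TPM in the Tet2 KO pair, so the division of reads between them is uncertain. Their sum fell 1.51-fold, from 1719.85 and 1700.66 TPM to 1106.52 and 1154.65 TPM. Eno2, the neuronal enolase, is also a known HIF target. It was listed at 0.41 and 0.24 TPM in the WT pair and at 2.44 and 2.63 TPM in the Tet2 KO pair. Because Eno2 passed the filter through the Tet2 KO libraries alone, its log2 fold change of 1.42 is only a description. Its ratio to Eno1 was 0.00297 and 0.00294 in the Tet2 KO pair. Without either Tet2 KO library it did not reach the filter and was not tested.

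The lactate step fell at both the enzyme and the exporter. Ldha (chromosome 7, 46841475 to 46855627), which encodes the subunit that favours lactate formation, stood at 1131.92 and 1116.33 TPM in the WT pair and at 609.69 and 643.85 TPM in the Tet2 KO pair. It fell 1.79-fold (log2 fold change of -0.84, SE 0.0358, limma adjusted p = 4.62e-12). Ldhb, the heart-type subunit, was at 0.15 and 0.06 TPM in the WT pair and listed at 0 in both Tet2 KO libraries, so no ratio of the pair was formed. Slc16a3 (chromosome 11, 120948480 to 120960868), which encodes the lactate exporter MCT4 and is a known HIF target, fell 2.14-fold, from 102.30 and 100.69 TPM to 48.00 and 47.05 TPM (log2 fold change of -1.08, SE 0.051, limma adjusted p = 1.66e-11). Slc16a1, which encodes MCT1, a carrier of lactate in both directions, went from 31.98 and 31.87 TPM to 41.79 and 40.63 TPM (log2 fold change of 0.36, limma adjusted p = 3.14e-05). Relative to the all-gene median Slc16a1 did not pass (0.11, limma adjusted p = 0.0766). Slc16a3 made up 76.2 and 76.0% of the summed TPM of this pair in WT and 53.5 and 53.7% in Tet2 KO. Bsg, which encodes the chaperone that brings both carriers to the cell surface, fell from 346.31 and 341.00 TPM to 254.90 and 259.38 TPM (limma adjusted p = 6.28e-08). It belongs to the further pathway genes below and was picked after its values were seen.

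Regulators of the flow through glycolysis moved against the enzymes in part. Pfkfb3 makes fructose 2,6-bisphosphate, the activator of phosphofructokinase. It rose 1.56-fold, from 30.25 and 30.54 TPM to 46.32 and 48.36 TPM (log2 fold change of 0.62, SE 0.0574, limma adjusted p = 6.15e-08). Pfkfb4, a relative with more balanced kinase and phosphatase activity, fell 1.38-fold, from 12.72 and 13.24 TPM to 8.95 and 9.84 TPM (limma adjusted p = 1.82e-04). Pdk1, a kinase that holds back pyruvate dehydrogenase and so the entry of pyruvate into mitochondria, rose 1.5-fold, from 15.66 and 15.64 TPM to 23.27 and 23.56 TPM (log2 fold change of 0.55, SE 0.0658, limma adjusted p = 1.26e-06). Pfkfb3 and Pdk1 remained higher after median-ratio scaling (0.38 and 0.31) and Pfkfb4 lower (-0.66).

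**Figure D3:**
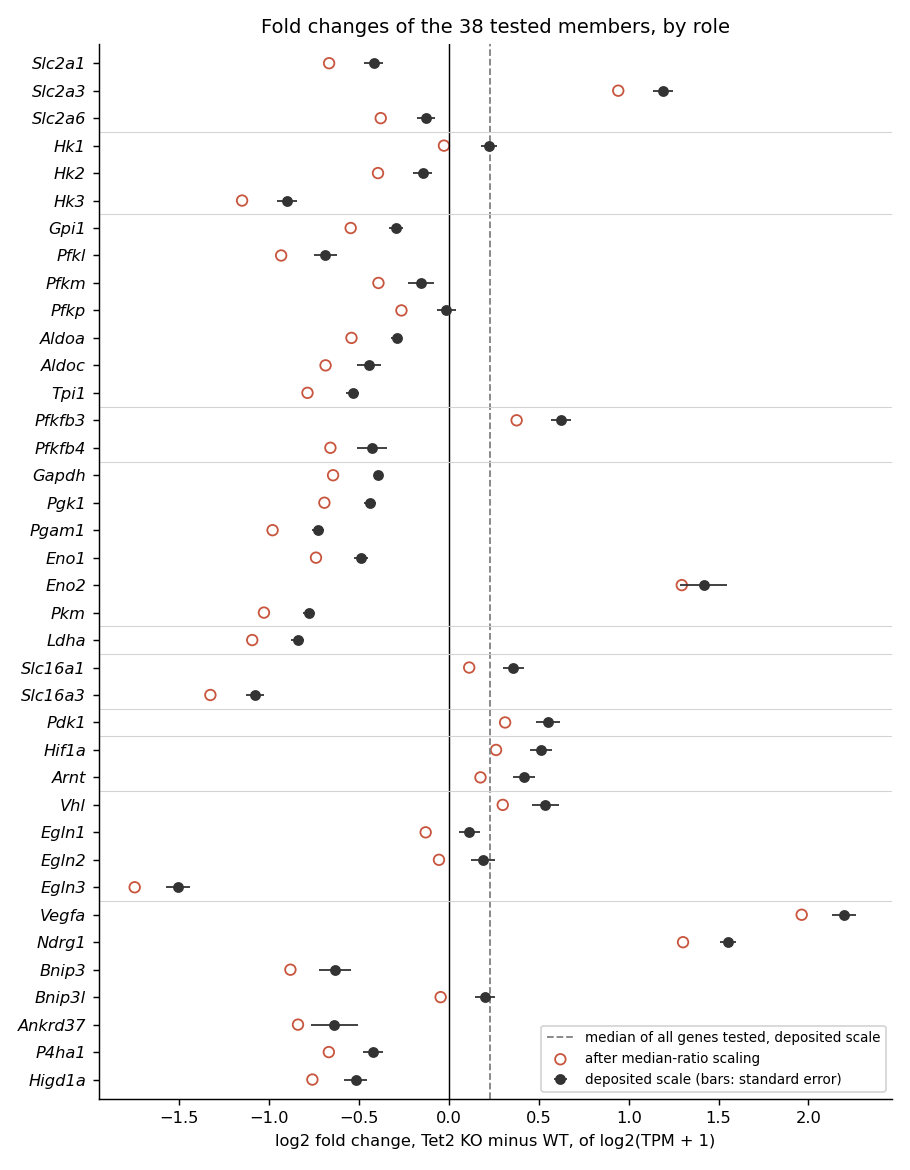
Log2 fold change (Tet2 KO minus WT, of log2(TPM + 1)) of the 38 tested members, grouped by role, with the standard error on the deposited scale (filled points) and after median-ratio scaling (open points). The dashed line marks the median of all genes, 0.23; Hk1, Egln1, Egln2 and Bnip3l lie between 0 and that line and turn negative after scaling, while Vegfa, Ndrg1, Eno2 and Slc2a3 stay above 0.9.

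RNA of the HIF subunit genes Hif1a and Arnt was higher in Tet2 KO. Hif1a (chromosome 12, 73901375 to 73947530), which encodes the oxygen-regulated subunit HIF-1 alpha, went from 55.46 and 58.48 TPM to 86.33 and 77.07 TPM, 1.43-fold higher (log2 fold change of 0.51, SE 0.0601, limma adjusted p = 1.51e-06). Arnt, which encodes its constant partner, went from 24.00 and 22.96 TPM to 31.87 and 31.57 TPM, 1.35-fold higher (log2 fold change of 0.42, limma adjusted p = 1.2e-05). Relative to the all-gene median both rises were smaller, 0.26 and 0.18 (limma adjusted p = 0.00829 and 0.0207). With the length and GC correction added they were 0.12 and 0.13 (limma adjusted p = 0.0348 and 0.0428). The rise of Arnt did not pass when scaled to the spike-ins (0.13, limma adjusted p = 0.0977). Epas1, which encodes HIF-2 alpha, was listed below 0.5 TPM in every library, and Hif3a likewise.

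Of the oxygen-sensing genes, Egln3 stood apart from its relatives. Egln3 (chromosome 12, 54178981 to 54203860), which encodes the prolyl hydroxylase PHD3 and is itself a known HIF target, was at 33.98 and 36.15 TPM in the WT pair and at 11.42 and 11.90 TPM in the Tet2 KO pair. This 3.01-fold fall was the largest of the tested members (log2 fold change of -1.51, SE 0.0671, limma adjusted p = 7.78e-12). Egln1, which encodes PHD2, the main sensor for HIF-1 alpha, was at 25.27 and 25.28 TPM in the WT pair and at 27.67 and 27.19 TPM in the Tet2 KO pair and missed the threshold (log2 fold change of 0.11, limma adjusted p = 0.101). Egln2, which encodes PHD1, was at 33.78 and 32.41 TPM against 35.57 and 40.35 TPM (log2 fold change of 0.19, limma adjusted p = 0.0165). The Egln2 call was lost without WT replicate 2 (limma adjusted p = 0.12) or Tet2 KO replicate 2 (0.157), and the value was -0.06 relative to the all-gene median. The share of Egln3 in the summed RNA of the 3 hydroxylases went from 36.5 and 38.5% to 15.3 and 15.0%. Vhl rose from 12.44 and 11.49 TPM to 17.58 and 17.98 TPM (limma adjusted p = 6.93e-06, log2 fold change of 0.54), and by 0.30 after median-ratio scaling (limma adjusted p = 0.00462).

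Of the other HIF targets, 3 rose, 2 of them strongly, and 4 fell. Vegfa (chromosome 17, 46016993 to 46032369), which encodes the main growth factor for blood vessels, rose 5.05-fold, from 7.44 and 7.86 TPM to 38.57 and 38.77 TPM (log2 fold change of 2.20, SE 0.0687, limma adjusted p = 9.52e-14). Ndrg1 (chromosome 15, 66929318 to 66969640), which encodes a cytoplasmic protein induced by hypoxia and several other stresses, rose 2.96-fold, from 83.97 and 88.45 TPM to 252.27 and 257.35 TPM (log2 fold change of 1.55, SE 0.0455, limma adjusted p = 4.66e-14). Both rises were at least 2-fold on the log2(TPM + 1) scale, which held for 6.10% of all genes tested. Falls of that size were seen in 2.80% of all genes and, among the members, in Slc16a3 and Egln3. The falls were those of Bnip3, P4ha1, Higd1a and Ankrd37.

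Bnip3, a mitochondrial receptor for mitophagy, fell from 78.01 and 87.62 TPM to 57.57 and 48.67 TPM (log2 fold change of -0.63, SE 0.0896, limma adjusted p = 3.74e-04). Its relative Bnip3l went from 57.75 and 57.62 TPM to 69.16 and 63.96 TPM (limma adjusted p = 0.0037, log2 fold change of 0.20), and was at -0.05 relative to the all-gene median (limma adjusted p = 0.482). P4ha1, a collagen prolyl hydroxylase subunit, fell 1.35-fold, from 40.70 and 40.13 TPM to 29.52 and 30.26 TPM. Higd1a, a small protein of the mitochondrial inner membrane, fell 1.46-fold, from 27.00 and 27.84 TPM to 19.04 and 18.64 TPM. Ankrd37, an ankyrin repeat gene, was low and fell 1.72-fold, from 5.04 and 6.07 TPM to 3.75 and 2.71 TPM. These last 3 passed the test (limma adjusted p between 1.69e-06 and 5.62e-04). Adm, which encodes adrenomedullin, was listed at 0.05 TPM in WT replicate 2 and at 0 in the other libraries.

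Ratios between related members within a library do not change when all values of that library are multiplied by 1 factor, as in median-ratio and spike-in scaling. Corrections that move genes unequally can change them. With median-ratio scaling plus the length and GC correction, the log2 fold changes were -0.31 for Pfkm, -0.55 for Pfkp and -0.93 for Pfkl. By these values Pfkm to Pfkp turned from lower to higher, and the fall of Pfkl to Pfkp was smaller. Of 13 pairs set for comparison, 12 could be formed, and in 11 of them both WT libraries lay on one side of both Tet2 KO libraries. Of all single genes tested, 86.8% were apart in this way. The share among ratios of other gene pairs was not computed, so the count says nothing particular about these pairs. The 11 include Eno2 to Eno1, and Eno2 passed the filter through the Tet2 KO libraries alone. With 2 libraries against 2, an exact two-sided permutation test cannot give a p below 0.333, and each of the 11 gave that value. The ratio of Egln3 to Egln1 went from 1.34 and 1.43 to 0.413 and 0.438, a 3.26-fold change. The ratio of Slc2a3 to Slc2a1 went from 0.451 and 0.453 to 1.41 and 1.41, a 3.12-fold change, so the more abundant of the pair differed between the groups. The ratio of Slc16a3 to Slc16a1 went from 3.2 and 3.16 to 1.15 and 1.16, and that of Pfkfb4 to Pfkfb3 from 0.42 and 0.434 to 0.193 and 0.203. The ratio of Bnip3 to Bnip3l went from 1.35 and 1.52 to 0.832 and 0.761. That of Hk3 to Hk2 went from 5.59 and 5.42 to 3.12 and 3.41, and that of Pfkl to Pfkp from 0.588 and 0.587 to 0.354 and 0.374. Pfkm to Pfkp and Aldoc to Aldoa changed by 1.11-fold and 1.13-fold. Epas1 to Hif1a overlapped between groups (exact permutation p = 0.667).

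**Figure D4:**
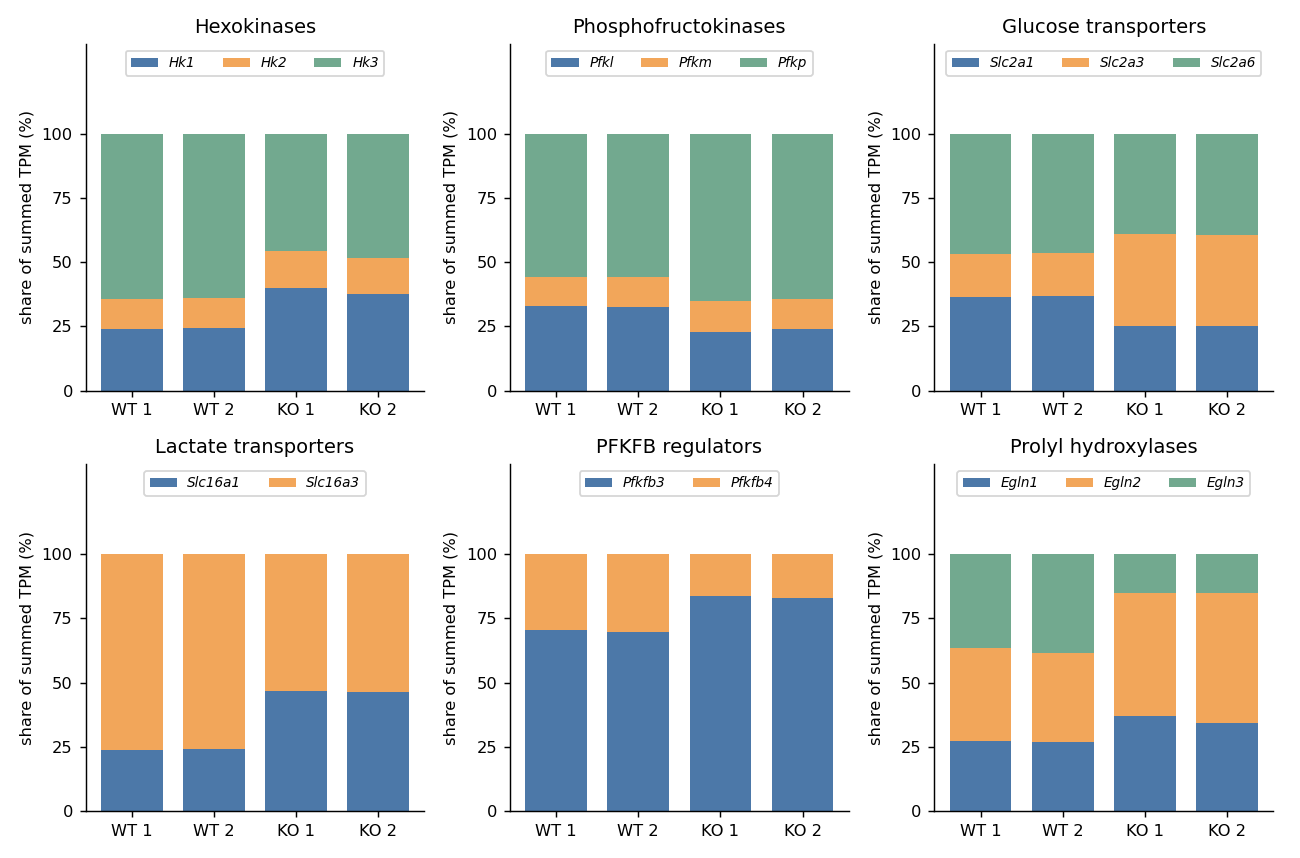
Share of each gene in the summed TPM of its group (hexokinases, phosphofructokinases, glucose transporters, lactate transporters, PFKFB regulators and prolyl hydroxylases), as stacked bars of 100% for each of the 4 libraries. Replicates are nearly alike; the shares of Hk3, Pfkl, Slc16a3, Pfkfb4 and Egln3 are smaller in both Tet2 KO libraries (KO 1 and KO 2) and that of Slc2a3 is larger, from 16.5 and 16.8% to 35.7 and 35.5%.

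The rest of the pathway was read from 2 longer lists. Of 43 further genes of glycolysis, pyruvate entry and glycogen, 33 were tested, with 13 higher and 11 lower in limma (median log2 fold change 0.05), where all genes gave 54.4% higher and 19.5% lower. Relative to the all-gene median 8 were higher and 16 lower, where all genes gave 32.7% and 34.8%. On the log2(TPM + 1) scale the largest change was that of Txnip, which encodes an arrestin that restrains glucose uptake, from 392.54 and 407.16 TPM to 1120.74 and 1144.67 TPM (log2 fold change of 1.5, limma adjusted p = 3.09e-15). Its relative Arrdc4 rose 1.68-fold, from 9.51 and 10.84 TPM to 17.28 and 16.98 TPM (limma adjusted p = 7.88e-07). Pdk2, a pyruvate dehydrogenase kinase like Pdk1, rose 3.32-fold in mean TPM, against 2.83-fold for Txnip, from 1.48 and 1.75 TPM to 5.11 and 5.61 TPM (limma adjusted p = 3.44e-08). Another kinase of that family, Pdk3, picked after its values were seen, rose 1.38-fold, from 54.34 and 56.01 TPM to 75.75 and 76.69 TPM (limma adjusted p = 6.95e-07), and Pdk4 was listed at 0. Tigar, which lowers fructose 2,6-bisphosphate, fell 1.81-fold, from 23.64 and 23.40 TPM to 12.97 and 12.96 TPM (limma adjusted p = 1.76e-08). Slc2a8, which encodes the intracellular transporter GLUT8, fell 1.83-fold, from 7.0 and 7.02 TPM to 3.97 and 3.68 TPM (limma adjusted p = 4.21e-06).

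Of 41 further genes of the HIF pathway, 37 were tested, with 19 higher and 15 lower in limma (median log2 fold change 0.29), where all genes gave 54.4% higher and 19.5% lower with a median of 0.23. Relative to the all-gene median 18 were higher and 16 lower, where all genes gave 32.7% and 34.8%. Stc2, which encodes the secreted glycoprotein stanniocalcin 2, rose 3.21-fold, from 11.40 and 11.25 TPM to 33.96 and 38.73 TPM (limma adjusted p = 1.02e-11). Edn1, which encodes the vasoconstrictor endothelin 1, was at 5.60 and 4.84 TPM against 0.39 and 0.30 TPM. It passed the filter through the WT libraries alone, so its difference was built into its selection. Fam162a, a mitochondrial HIF target, fell 2.18-fold, from 286.52 and 279.30 TPM to 130.56 and 129.27 TPM (limma adjusted p = 9.12e-13). Bhlhe41, a transcriptional repressor gene, fell 2.45-fold, from 12.28 and 12.19 TPM to 5.21 and 4.76 TPM (limma adjusted p = 6.68e-09).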

How the data were processed

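RNA was measured in 4 libraries, 2 WT and 2 Tet2 KO, made with a stranded mRNA kit per the labels' protocols. The authors deposited 1 table of TPM made with STAR and RSEM on mm10, per the submitters' processing notes. Tool versions, the annotation release and any filtering were not given in the sources used here. TPM are shares of a fixed total and keep no depth, so no interval or floor was computed and 0 means listed at 0. Because 92 spike-in rows share that total, they move all other values. They were left out of the tests.

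Genes that reached 1 TPM in 2 or more libraries were compared with limma 3.58.1 (R 4.3.3, statmod 1.5.0) on log2(TPM + 1), with intensity trend and robust estimation. P-values are two-sided and Benjamini-Hochberg adjusted over all 11452 genes tested, with a threshold of 0.05. Folds without log2 are ratios of mean TPM. Log2 fold changes understate changes of low genes. Median-ratio scaling, scaling to spike-ins, quantile normalization, length and GC correction after median-ratio scaling (99.2% of tested genes had both), pseudocounts of 0.1 and 5, other filters, other limma settings, a replicate block and leaving out each library were run as alternatives. The main limma fit was tested on simulated data in which far fewer genes changed than here. Median-ratio scaling was tested on values multiplied by a known factor. The other steps were not tested in this way.

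The members, lists and ratios were chosen with earlier results of these data known. All members are named. Of each longer list, the 5 called genes with the largest absolute log2 fold change and at least 5 TPM in the higher group are named, with additions marked where they occur and 1 gene that meets this rule not reported here. Gene positions are GENCODE M21 on GRCm38. Exact permutation tests used scipy 1.17.1, and figures matplotlib 3.10.9.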

Additional observations from a re-analysis of the deposited data

How the results depend on the processing

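The length and GC correction was run on top of median-ratio scaling, so its values hold both changes. Of the 38 tested members, 28 kept their direction and their side of the threshold in all of the 16 alternatives in which they could be tested. All genes higher numbered 6225 on the deposited scale, 3743 after median-ratio scaling, 3394 scaled to spike-ins, 3951 after quantile normalization and 3754 with the length and GC correction. All genes lower numbered 2238, and 3982, 4324, 3734 and 4149 in the same order. Members higher numbered 13, and 8 scaled to spike-ins. Enzymes higher numbered 2, and 1 after median-ratio scaling, scaled to spike-ins, with the length and GC correction or with a filter of 5 TPM, and 1 to 2 with 1 library left out. With Egln3, Pdk1, Pfkfb3 and Pfkfb4 added, 5 other HIF targets were higher in place of 3. Further glycolysis genes higher numbered 13, and 8, 7 and 8 after median-ratio scaling, scaled to spike-ins and after quantile normalization. Those lower numbered 11, and 16 after median-ratio scaling, 17 scaled to spike-ins and 21 with the length and GC correction.

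Several small rises turned negative under scaling. In the order of median-ratio scaling, spike-in scaling and the length and GC correction, log2 fold changes were -0.028, -0.071 and -0.053 for Hk1. They were -0.13, -0.17 and -0.10 for Egln1, -0.056, -0.098 and -0.027 for Egln2, and -0.047, -0.089 and -0.077 for Bnip3l. For Tet2 they were -0.23, -0.27 and -0.53. Tet2 was called lower in each of these settings (limma adjusted p = 0.00831, 0.00278 and 5.19e-05). After quantile normalization Hk1 stayed higher at 0.17 (limma adjusted p = 0.00329), and the values were -0.13 for Egln1, -0.035 for Egln2 and -0.25 for Tet2. With 1 library left out, Pfkp ran from -0.067 to 0.037, positive without Tet2 KO replicate 1, and Tet2 ran from -0.0012 to 0.028, negative without WT replicate 1. Members higher numbered 11 to 13 and lower 20 to 23, with Slc2a6, Hk2 and Egln2 losing their call and Pfkm gaining one without Tet2 KO replicate 2. Eno2 could not be tested with a filter of 5 TPM or without either Tet2 KO library. In these cases the cause was not tested beyond the construction of the scaling. With the replicate block, 13 members were higher and 22 lower, the same counts as without it. Same-numbered libraries deviated with a correlation of -0.0561 over genes. With 2 libraries per group this value cannot decide whether the numbers pair the samples, and the labels do not say. TPM hide depth, so low members such as Eno2, Ldhb, Epas1 and Adm cannot be given a counting error.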

Other observations

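Relatives of Vegfa and Ndrg1 were also read, chosen after their values were seen. Of the vascular growth factor family, Vegfb rose from 24.14 and 23.53 TPM in the WT pair to 50.92 and 55.35 TPM in the Tet2 KO pair (log2 fold change of 1.12, limma adjusted p = 9.43e-11). Vegfc rose from 5.17 and 5.20 TPM to 10.66 and 9.90 TPM (log2 fold change of 0.87, limma adjusted p = 2.32e-07). Vegfd was below 1 TPM in every library and was not tested. Of the family of Ndrg1, Ndrg2 rose from 1.3 and 1.17 TPM to 3.15 and 3.19 TPM, Ndrg3 rose from 21.58 and 21.39 TPM to 27.82 and 29.05 TPM, and Ndrg4 fell from 4.31 and 3.97 TPM to 2.05 and 2.22 TPM (limma adjusted p between 3.3e-06 and 3.36e-05). These 5 tested genes kept their directions after median-ratio scaling, where their log2 fold changes were 0.88, 0.64, 0.73, 0.15 and -0.90. The call of Ndrg3 was lost when scaled to spike-ins (0.10, limma adjusted p = 0.214) and with the length and GC correction (0.11, limma adjusted p = 0.0702).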
